A study of Mus musculus with 8 samples.

Results

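Glucose uptake, its commitment to glycolysis and the export of lactate were examined at the mRNA level through 10 genes. They encode the glucose transporters Slc2a1 and Slc2a3, the hexokinases Hk1 and Hk2, the control enzymes Pfkp and Pfkfb3, the pyruvate and lactate enzymes Pkm and Ldha, and the monocarboxylate transporters Slc16a1 and Slc16a3. The genes were picked by symbol for their place in the pathway, and all 10 were found among the 28239 rows of the count table. None of the 10 differed between the groups at an adjusted p under 0.05, and for each of them the 95% interval of the fold change stayed between 0.757 and 1.51.

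The libraries came from regulatory T-cells (Tregs) that had been differentiated from naïve CD4+ T-cells of mouse spleen and taken on day 2. The cultures received 100 U/ml IL-2, 5 ng/ml TGF-β and 1 CD3/CD28 bead per cell, and the methods give the mice as females and males 10 to 12 weeks old. The labels give a C57BL/6 strain background for every library, with the genotype Alox15-/- in 4 libraries and wild type (WT) in 4. Alox15-/- mice lack a working gene for 15-lipoxygenase in all tissues, so the deletion was not limited to T-cells. The methods name MACE-seq, which sequences a fragment near the 3′ end of each polyadenylated transcript, while the labels name a small RNA kit and preserved spleens. The transcriptomes of this genotype are described as coming from as many Alox15-/- mice as there are libraries, but the labels do not tie a library to a mouse and no source used here says so for the WT libraries. P-values therefore measure the spread between these libraries, which may be partly technical.

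Glucose enters T-cells through facilitative transporters and is trapped by hexokinase as glucose 6-phosphate. Phosphofructokinase sets the pace of the pathway, pyruvate kinase forms pyruvate, and lactate dehydrogenase turns pyruvate into lactate, which leaves the cell with a proton through monocarboxylate transporters. Activated effector T-cells depend strongly on this route, whereas Tregs are known for a larger part played by fatty acid oxidation and mitochondrial respiration, and FOXP3 is known to dampen Myc and glycolysis.

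Alox15 itself went against the label. It was at 70.5, 69.2, 63.7 and 65.3 CPM (counts scaled to a common library total) in replicates 1 to 4 labelled Alox15-/- and at 1.88, 2.56, 7.77 and 9.02 CPM in the WT replicates. All 4 libraries labelled Alox15-/- lay above all 4 WT libraries, with a log2 fold change of 3.65 (SE 0.299, n = 4 per group, edgeR quasi-likelihood adjusted p = 1.08e-05). Which part of the gene is deleted is not given in the sources used here, and a tag near the 3′ end does not test a deletion elsewhere in the gene. Whether the group labels were exchanged was not tested, and an exchange would turn the sign of every difference below. Groups are therefore named by their labels, and every direction below is that of the libraries labelled Alox15-/- relative to the WT libraries.

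Library totals ran from 3723151 to 9538962 counts, and the 10 genes together took 0.319% to 0.389% of a library. Of 12700 genes tested, 133 rose and 25 fell. The T-cell markers were present in both groups, with the summed level of 10 genes at 3135 to 3634 CPM in the libraries labelled Alox15-/- and 3399 to 3803 CPM in WT, and 0 of 10 passed the test. Cd4 was at 268.7 ± 40.0 CPM against 335.9 ± 11.1 CPM and Cd3g at 161.3 ± 7.24 CPM against 130.1 ± 13.1 CPM (SD, n = 4), each with groups that did not overlap (edgeR adjusted p = 0.357 and 0.296). Foxp3 was at 93.4 ± 17.1 CPM against 124.9 ± 47.4 CPM. Its log2 fold change was -0.42 (95% interval -0.86 to 0.01, edgeR adjusted p = 0.655). Above the WT mean were 0 of 4 libraries labelled Alox15-/-, but the highest WT library, at 195.4 CPM, lifted that mean. The WT median was 105.4 CPM. The groups overlapped, from 93.4 CPM upward in WT and up to 113.5 CPM in the libraries labelled Alox15-/-. Erythroid genes stood apart, since 11 of 12 listed genes were in the table, 7 were tested and 5 of those rose, led by the hemoglobin genes. Their summed level was 1104, 3342, 3503 and 922 CPM in replicates 1 to 4 labelled Alox15-/- and 44.5 to 130.1 CPM in WT, and none of the 11 was at 0 in every library. Myeloid genes also rose in 5 of 7 tested, with sums of 50.8 to 380.0 CPM against 13.7 to 23.1 CPM, and mast cell and basophil genes in 8 of 9, with sums of 145.6 to 376.2 CPM against 59.6 to 84.4 CPM. Of 9 listed eosinophil genes only 2 were tested, the granule genes Prg2 and Epx, and 2 rose. The receptor genes Siglecf, Ccr3 and Il5ra were too low to test. They were at 0.249, 0.108 and 0.193 CPM in the libraries labelled Alox15-/- and at 0.052, 1.64 and 0.052 CPM in WT. Genes of NK and γδ T-cells rose in 4 of 6 tested, all 4 of them constant genes of the γδ receptor (Trdc, Tcrg-C1, Tcrg-C2 and Tcrg-C4), while Eomes and Nkg7 did not pass. B-cell genes fell in 1 of 3, CD8 genes passed in 0 of 2, and of 10 Treg genes 1 rose, the integrin gene Itgae. The part of these cells in the results below was not tested. In bulk RNA, fewer cells of a type and less RNA per cell cannot be told apart.

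The control regions of 4 of the genes are shown because hypoxia-inducible factor (HIF) and Myc, known drivers of glycolytic transcription, bind short motifs there, and because these genes formed the most alike and the most opposed pair across libraries, as described further on. The pairs were chosen after their values were seen. Each run is the 250 bases before a single start per gene in RefSeq (GRCm38.p6), read 5′ to 3′ on the gene's strand. These starts differ from the GENCODE gene spans given further on. By those spans the Ldha and Slc16a3 windows lie within the gene, and the Pkm and Pfkfb3 windows overlap its start. Capitals mark ACGTG on either strand, the core of HIF sites, and CACGTG, the E-box of Myc, which contains ACGTG. The stretches are chr9:59656326-59656575 on the plus strand for Pkm, chr11:120948817-120949066 on the plus strand for Slc16a3, chr7:46845554-46845803 on the plus strand for Ldha and chr2:11553930-11554179 on the minus strand for Pfkfb3.
Pkm: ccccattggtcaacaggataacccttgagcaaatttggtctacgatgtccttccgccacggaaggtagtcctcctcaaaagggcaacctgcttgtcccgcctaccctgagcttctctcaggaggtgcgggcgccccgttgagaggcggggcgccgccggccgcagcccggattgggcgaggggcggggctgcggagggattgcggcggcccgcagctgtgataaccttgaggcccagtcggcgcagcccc
Slc16a3: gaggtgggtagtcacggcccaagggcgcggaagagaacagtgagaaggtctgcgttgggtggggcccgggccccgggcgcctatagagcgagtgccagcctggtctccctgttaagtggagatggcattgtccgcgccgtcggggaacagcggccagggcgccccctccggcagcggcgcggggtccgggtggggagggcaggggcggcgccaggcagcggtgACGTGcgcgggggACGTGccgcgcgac
Ldha: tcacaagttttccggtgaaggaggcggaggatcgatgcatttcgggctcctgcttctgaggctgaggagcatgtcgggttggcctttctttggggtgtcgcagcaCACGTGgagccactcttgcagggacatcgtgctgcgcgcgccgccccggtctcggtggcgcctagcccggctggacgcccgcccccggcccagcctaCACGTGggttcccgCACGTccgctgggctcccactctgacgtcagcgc
Pfkfb3: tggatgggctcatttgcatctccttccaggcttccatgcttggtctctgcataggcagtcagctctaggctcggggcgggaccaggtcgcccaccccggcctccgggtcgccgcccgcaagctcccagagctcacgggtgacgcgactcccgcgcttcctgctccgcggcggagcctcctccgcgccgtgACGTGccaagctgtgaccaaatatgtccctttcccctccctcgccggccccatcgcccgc

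Pkm had no such stretch, Slc16a3 had 2, Ldha had 3 and Pfkfb3 had 1. Of the 10 genes, 9 matched an entry and Slc2a3 did not. ACGTG stood in 6 of the 9 windows and in 16.5% of all 27025 promoter windows of the same length. CACGTG stood in 2 of the 9, Ldha and Slc16a1, and in 6.04% of all windows. The related core GCGTG, searched on both strands but not capitalised, stood in 3 of the 9 and in 28.3% of all windows. These are matches of letters and no evidence of binding. The shares over all windows were not matched for GC content, which was 49.6% for Hk1 and 62.8% to 76.4% for the other windows.

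Both glucose transporters were read in every library, and neither passed the test. Slc2a1 encodes GLUT1, the transporter that rises with T-cell activation, and lies at chr4:119108711-119137983 on the plus strand (GRCm38, GENCODE). It was at 42.7, 45.6, 39.7 and 38.8 CPM in replicates 1 to 4 labelled Alox15-/- and at 46.3, 41.3, 48.4 and 50.6 CPM in the WT replicates. All 4 libraries labelled Alox15-/- were below the WT mean of 46.6 CPM, and the groups overlapped through WT replicate 2. The log2 fold change was -0.16 (SE 0.112, 95% interval -0.40 to 0.07, edgeR adjusted p = 0.782), with the lowest unadjusted p of the 10 genes at 0.161. The last bases of its transcript overlap Gm12868 on the other strand. Slc2a3 encodes GLUT3, a high-affinity transporter, and lies at chr6:122727809-122801640 on the minus strand. Its level was 21.5, 21.4, 24.2 and 28.2 CPM in the libraries labelled Alox15-/- and 26.2, 25.9, 24.0 and 27.1 CPM in WT. Replicates 1 and 2 labelled Alox15-/- were the lowest and replicate 4 of the same group the highest, so the groups overlapped. Its log2 fold change was -0.10 (SE 0.134, 95% interval -0.39 to 0.19, adjusted p = 0.906).

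Both hexokinases were measured in every library and neither separated the groups. Hk1, the widely expressed hexokinase, lies at chr10:62268855-62379908 on the minus strand. Its level was 80.1, 102, 89.1 and 75.7 CPM in the libraries labelled Alox15-/- and 77.5, 79.8, 102 and 73.0 CPM in WT. A single library of each group, replicate 2 labelled Alox15-/- and WT replicate 3, stood above the rest. Its difference on the log2 scale was 0.05 (SE 0.128, 95% interval -0.22 to 0.32, adjusted p = 0.958). Hk2, the inducible form that is a known target of HIF and Myc, lies at chr6:82725025-82774454 on the minus strand. It was at 40.8, 43.4, 34.6 and 29.5 CPM in the libraries labelled Alox15-/- and at 33.7, 39.9, 26.6 and 37.6 CPM in WT. The lowest library of all was WT replicate 3, the same library that was high for Hk1. Its log2 fold change was 0.10 (SE 0.155, 95% interval -0.23 to 0.43, adjusted p = 0.914).

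At the phosphofructokinase step the groups again overlapped. Pfkp encodes the platelet-type subunit of phosphofructokinase 1, which commits sugar to glycolysis, and lies at chr13:6579768-6648777 on the minus strand. It was at 152, 175, 154 and 121 CPM in the libraries labelled Alox15-/- and at 143, 160.3, 177 and 150.1 CPM in WT. Replicate 4 labelled Alox15-/- was the lowest of the 8, and the other libraries were mixed. On the log2 scale the fold change was -0.07 (SE 0.118, 95% interval -0.32 to 0.18, adjusted p = 0.930). The last 500 bases of its longest coding transcript lie within Pitrm1 on the other strand, and Pitrm1 had 4104 reads against 7308 for Pfkp, so without a stated strand setting reads of the 2 genes cannot be told apart there. Pfkfb3 makes fructose 2,6-bisphosphate, the strongest activator of phosphofructokinase 1, and lies at chr2:11471433-11554077 on the minus strand. Its level was 33.6, 29.0, 26.1 and 30.4 CPM in the libraries labelled Alox15-/- and 32.9, 30.6, 33.8 and 31.3 CPM in WT. The WT libraries were close together, and 3 of the 4 libraries labelled Alox15-/- were below all of them. For Pfkfb3 the log2 fold change was -0.11 (SE 0.121, 95% interval -0.37 to 0.14, adjusted p = 0.871).

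Pyruvate and lactate formation showed the same overlap. Pkm encodes muscle-type pyruvate kinase in both its splice forms, which a count per gene does not separate, and lies at chr9:59656368-59679375 on the plus strand. It was at 1007, 1230.3, 1289.6 and 1027 CPM in the libraries labelled Alox15-/- and at 963, 1245, 1289.96 and 1241 CPM in WT. WT replicate 1 stood well below the other WT libraries, and replicates 1 and 4 labelled Alox15-/- were nearly as low. For Pkm the log2 fold change was -0.06 (SE 0.117, 95% interval -0.31 to 0.19, adjusted p = 0.943). Ldha encodes the lactate dehydrogenase subunit that favours lactate formation and lies at chr7:46841475-46855627 on the plus strand. Its level was 1660.1, 2110.5, 2224 and 1771 CPM in the libraries labelled Alox15-/- and 1943, 2007, 1943 and 2129 CPM in WT. Replicates 1 and 4 labelled Alox15-/- lay below the narrow WT range, replicate 2 within it and replicate 3 above it. For Ldha the log2 fold change was -0.05 (SE 0.106, 95% interval -0.27 to 0.18, adjusted p = 0.950). The standard deviation was 13.8% of the mean in the libraries labelled Alox15-/- and 4.38% in WT, a difference in spread that was not tested.

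Of the lactate exporters, both had positive but small values. Slc16a1 encodes MCT1, which moves lactate in either direction, and lies at chr3:104638668-104658462 on the plus strand. It was at 97.8, 118, 99.3 and 73.4 CPM in the libraries labelled Alox15-/- and at 87.6, 89.5, 76.0 and 97.2 CPM in WT. Replicates 1 to 3 labelled Alox15-/- were above every WT library, and replicate 4 was below them all. For Slc16a1 the log2 fold change was 0.14 (SE 0.134, 95% interval -0.14 to 0.43, adjusted p = 0.849), and without replicate 4 labelled Alox15-/- it was 0.26 with an unadjusted p of 0.0491 and an edgeR adjusted p of 0.790 (0.756 to 0.984 over all alternatives). Slc16a3 encodes MCT4, a known HIF target suited to export from highly glycolytic cells, and lies at chr11:120948480-120960868 on the plus strand. Its level was 15.4, 24.2, 21.7 and 17.7 CPM in the libraries labelled Alox15-/- and 11.4, 19.2, 23.1 and 16.2 CPM in WT. Lowest was WT replicate 1, and the groups overlapped throughout. Slc16a3 had a log2 fold change of 0.16 (SE 0.207, 95% interval -0.28 to 0.60, adjusted p = 0.905), the widest interval of the 10 genes, with as few as 64 reads in a library and a counting error of 12.5% there. The value was 0.00035 without WT replicate 1 and 0.34 without WT replicate 3.

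**Figure D1:**
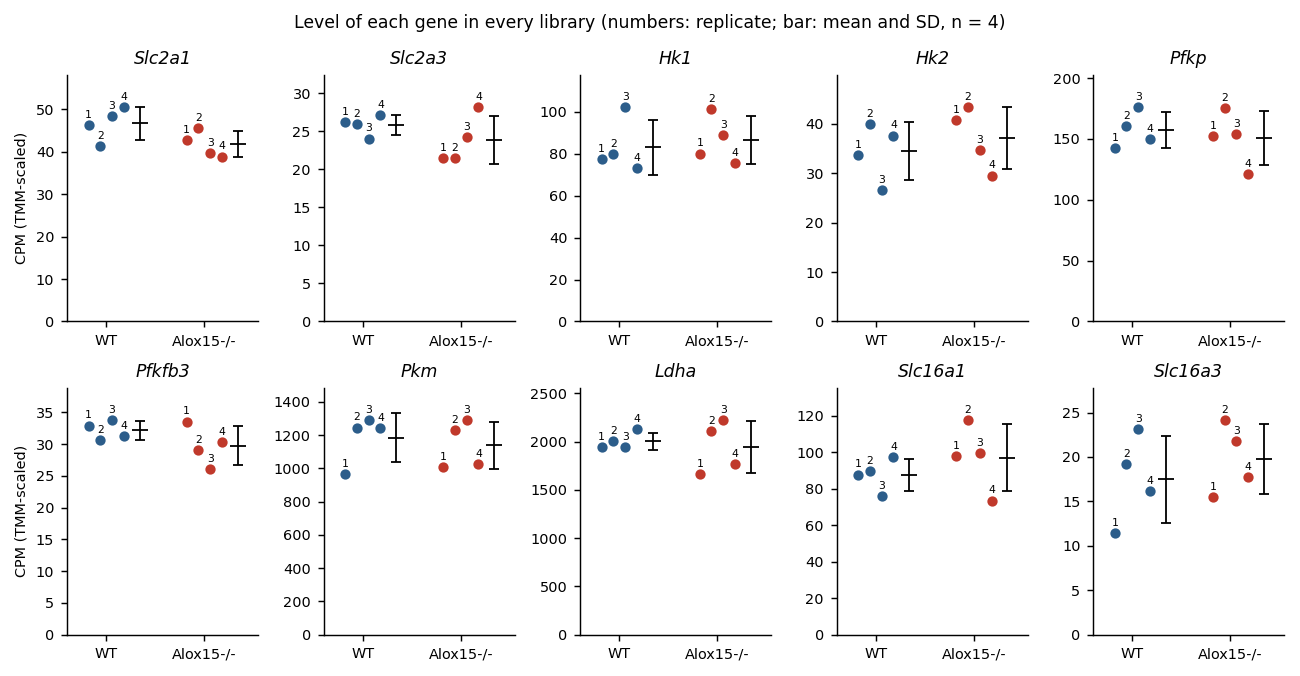
Level of each of the 10 genes in CPM (vertical axis, from 0) in the WT libraries and those labelled Alox15-/-, 1 point per library with its replicate number, and the mean with SD (n = 4) beside each group. For each gene the points of the groups overlap, for example Ldha at 1943 to 2129 CPM in WT and 1660.1 to 2224 CPM in the libraries labelled Alox15-/-.

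Across the set, 4 genes had positive and 6 had negative log2 fold changes, with a median of -0.05 against -0.01 over all genes tested, and the median absolute value was 0.10 against 0.13. The sign of Hk1, Hk2, Pfkp and Ldha turned when a single library was left out, the other 6 kept theirs, and the median was 0.01 without replicate 1 or replicate 4 labelled Alox15-/-. By edgeR's quasi-likelihood test 0 of 10 passed the adjusted threshold, against 1.24% of all genes. At an unadjusted p under 0.05 the count was also 0, against 7.84% of all genes. None of the 10 had groups that did not overlap, against 5.25% of all genes in either direction and 2.51% lower in the libraries labelled Alox15-/-. DESeq2 and limma-voom called 0 of 10 as well, against 1.53% and 1.1% of all genes. The lack of a call does not show that the groups were equal, and the intervals give the sizes that these libraries leave possible. The spread between libraries gave a biological coefficient of variation of 10.8% to 19.1% and a median of 12.5% over the 10 genes against 14.2% over all genes.

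**Figure D2:**
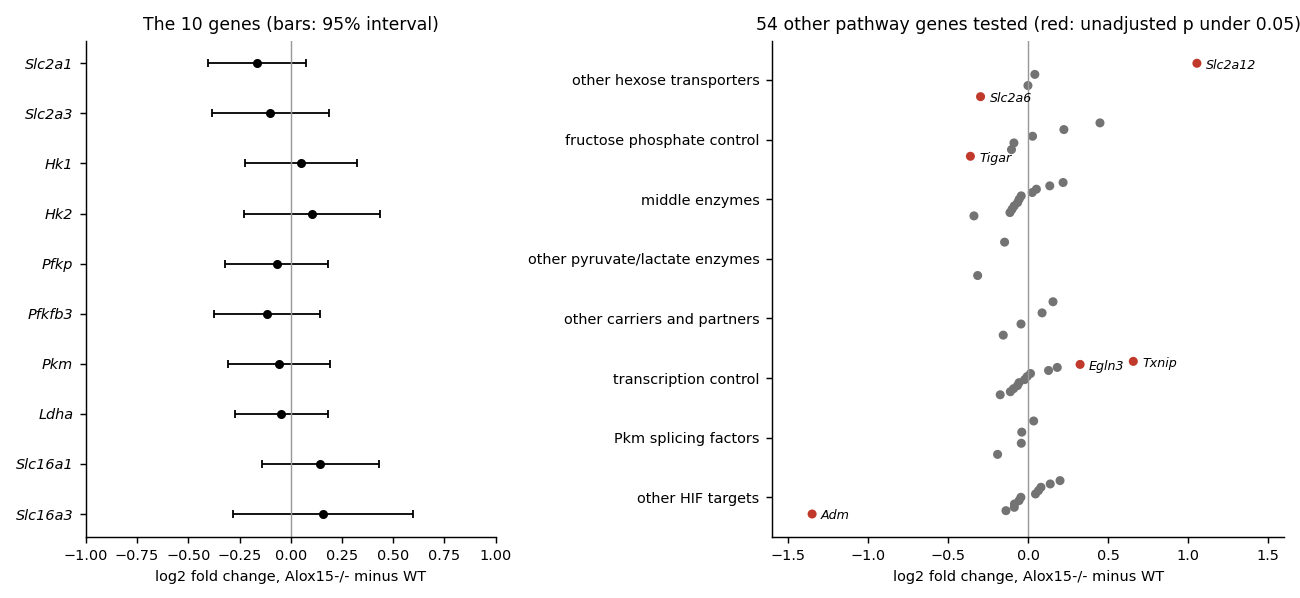
Log2 fold change of the libraries labelled Alox15-/- relative to WT (horizontal axis), at left for the 10 genes with 95% intervals and at right for the 54 other pathway genes tested, 1 point per gene and grouped by role, with unadjusted p under 0.05 in red. All 10 intervals at left include 0, and 6 genes at right are red, from Adm at -1.35 to Slc2a12 at 1.05.

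Choice between paired forms was compared through the ratio of counts in each library, which is free of library size but depends on how well each 3′ end was captured. Slc2a1 over Slc2a3 was 1.99, 2.13, 1.64 and 1.38 in the libraries labelled Alox15-/- and 1.77, 1.59, 2.02 and 1.87 in WT. Slc16a1 over Slc16a3 was 6.33, 4.87, 4.57 and 4.15 against 7.66, 4.66, 3.29 and 6.01. The groups overlapped in both ratios. Hk1 over Hk2 was 1.96, 2.34, 2.57 and 2.57 in the libraries labelled Alox15-/- and 2.30, 2.00, 3.85 and 1.94 in WT, where replicate 3 stood alone. Ldha over Ldhb, the subunit that favours pyruvate formation, was 28.5, 51.5, 35.6 and 26.0 against 29.4, 31.6, 34.7 and 29.8. Here replicate 2 labelled Alox15-/- stood far above the others, and the rest overlapped. In that library Ldhb was the lowest of all 8, at 41.0 CPM, while Ldha at 2110.5 CPM lay within the WT range.

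**Figure D3:**
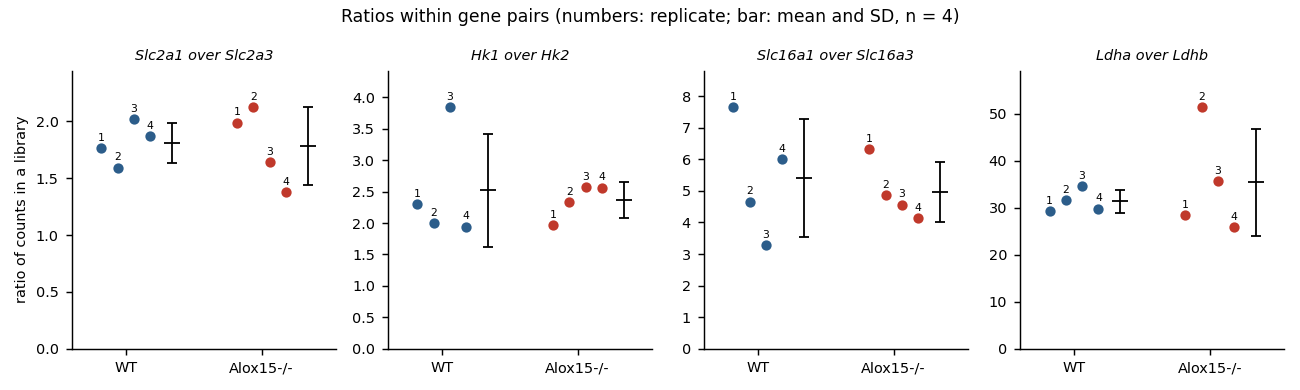
Ratio of counts within 4 gene pairs (vertical axis, no unit, from 0) in WT libraries and those labelled Alox15-/-, 1 point per library with its replicate number, and the mean with SD (n = 4). The groups overlap in each pair, with single libraries apart for Hk1 over Hk2 (WT replicate 3 at 3.85) and Ldha over Ldhb (replicate 2 labelled Alox15-/- at 51.5).

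Within a group the 10 genes did not move as one block. After group means of log2 CPM were removed, 27 of the 45 pairs of genes correlated positively over the 8 libraries, with a median Pearson's r of 0.15. These correlations are descriptions over libraries that share depth and makeup, and carry no test. The closest pair was Pkm and Slc16a3 with r = 0.91 (Spearman's rho 0.857, and r = 0.69 without the 2 libraries farthest from the median of Pkm). Hk2 with Slc16a1 followed at r = 0.86 (rho 0.714, and 0.52 without 2 libraries) and Hk1 with Pfkp at r = 0.84 (rho 0.905, and 0.69 without 2). Ldha and Pfkfb3 were the most opposed at r = -0.90 (rho -0.833, and -0.64 without 2), followed by Slc2a3 and Pfkp at r = -0.88 (rho -0.714, and -0.60 without 2). Against the mean of the other members of the set, Pfkp (r = 0.84) and Pkm (r = 0.77) followed most closely, and Slc2a3 (r = -0.69) and Pfkfb3 (r = -0.50) ran the other way.

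Single libraries set much of this. Replicate 2 labelled Alox15-/- was the highest of its group for 6 of the 10 genes, with a median deviation of 0.18 in log2 CPM from the group mean. Replicate 4 of that group was the lowest for 5, with a median of -0.14, and replicates 1 and 3 had medians of -0.04 and 0.05. WT replicate 3 was the highest of its group for 5 genes and the lowest for 4, from 0.44 for Slc16a3 to -0.35 for Hk2. The erythroid sums given above were high in replicates 2 and 3 labelled Alox15-/- and lower in 1 and 4, and hemoglobin genes took 0.110%, 0.326%, 0.334% and 0.0902% of counts in replicates 1 to 4. Myeloid sums were 88.4, 380.0, 225.4 and 50.8 CPM and eosinophil sums 45.9, 78.4, 66.4 and 21.7 CPM in the same replicates. Mast cell and basophil sums were 233.4, 376.2, 187.4 and 145.6 CPM, and sums of the NK and γδ T-cell list, mostly γδ receptor genes, were 183, 198, 175 and 104 CPM. The mean log2 CPM of the 10 genes was 6.52, 6.72, 6.61 and 6.43 in these libraries, an order that the myeloid and eosinophil sums shared and the erythroid, mast cell and γδ T-cell sums did not. In WT this mean was 6.47, 6.61, 6.63 and 6.61, and the myeloid sum was lowest in replicate 3, where the mean was highest. The part of these cells in the spread of the 10 genes was not tested.

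**Figure D4:**
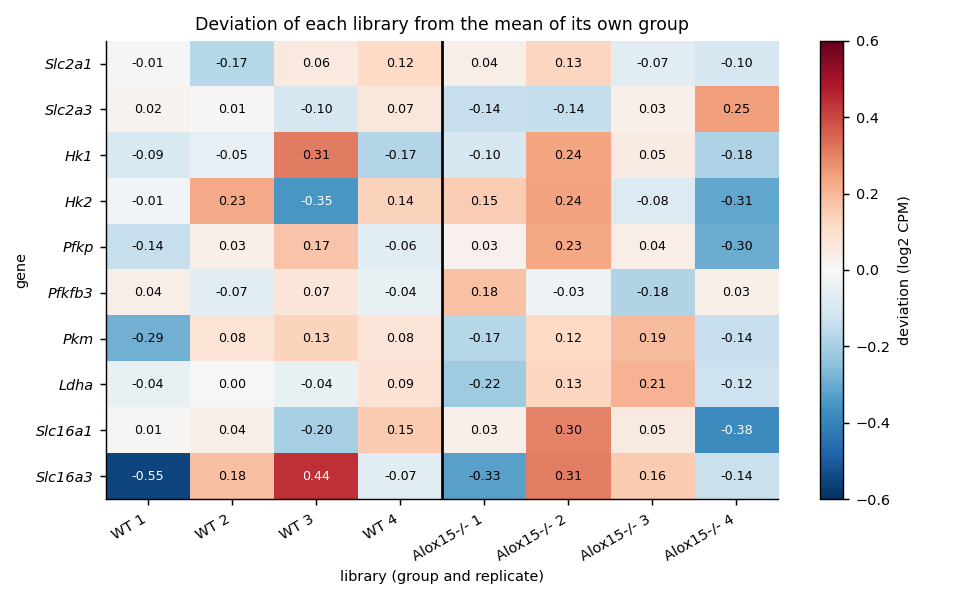
Deviation of each library from the mean of its own group (log2 CPM, colour and printed value), with genes as rows and the 8 libraries as columns, WT left of the line and libraries labelled Alox15-/- right of it. Replicate 2 labelled Alox15-/- is above its group mean for 8 of the 10 genes and replicate 4 below it for 8, while WT replicate 1 reaches -0.55 for Slc16a3.

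The genes whose deviations were most like the mean of the 10, among 12690 others, were Spns3 (r = 0.967), Tars (0.967), Ifitm3 (0.962), Cd63 (0.961), Nme7 (0.959), Gm20547 (0.957), Dap (0.950), Dfna5 (0.950), Tuba1c (0.947) and Wdpcp (0.946), each over 8 libraries. Of all these genes 4.09% had an r over 0.7. Among the 10 most alike, Spns3, Ifitm3 and Cd63 rose in the libraries labelled Alox15-/-, with log2 fold changes of 2.89, 2.10 and 3.90 and adjusted p of 0.00359, 0.0361 and 0.000217 by edgeR, against 1.24% called over all genes. Spns3 rests on 1 to 27 reads in a library, with 0.157 to 0.807 CPM in WT. The other 7 did not pass the test.

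A wider list of 80 pathway genes was read next, of which 54 could be tested. By edgeR 0 of 54 passed the adjusted threshold, against 1.24% of all genes, 22 had positive and 32 negative values, and the median log2 fold change was -0.04. At an unadjusted p under 0.05 there were 6 (11.1%, against 7.84% of all genes), and 4 had groups that did not overlap (7.41%, against 5.25%). DESeq2 called 1 of 54, against 1.53% of all genes, and limma-voom 0, against 1.1%.

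Txnip had the lowest p of the list. It encodes a thioredoxin-interacting protein that promotes removal of GLUT1 from the cell surface and is itself induced by glucose. Its level was 56.5, 51.8, 40.5 and 57.1 CPM in the libraries labelled Alox15-/- and 29.9, 34.4, 44.4 and 20.1 CPM in WT. Only WT replicate 3 overlapped the other group, where it was above replicate 3 labelled Alox15-/-. The log2 fold change was 0.66 (SE 0.190), with an unadjusted p of 0.00350 and an adjusted p of 0.189 by edgeR. The adjusted p was 0.0486 with DESeq2 and 0.0250 by edgeR without WT replicate 3, in a range of 0.000794 to 0.469 over all alternatives.

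Among control genes, Egln3, a prolyl hydroxylase that marks HIF for breakdown and is itself a HIF target, was at 96.8, 106, 90.02 and 85.7 CPM in the libraries labelled Alox15-/- and at 73.4, 78.2, 79.6 and 70.1 CPM in WT. The groups did not overlap, and the log2 fold change was 0.32 (SE 0.102, adjusted p = 0.275). Myc was at 149.0 ± 32.9 CPM against 149.997 ± 41.0 CPM (SD, n = 4), with a log2 fold change of -0.01. Mlx, a partner of the glucose-sensing factors, was the lowest of its group at -0.18 (adjusted p = 0.813). Hif1a had only 3 to 16 reads in a library, at 1.85 ± 1.01 CPM against 1.31 ± 0.553 CPM (SD, n = 4), and was left out by the filter on low counts. Other listed HIF targets ran from Adm at -1.35, which rests on 2 to 43 reads (adjusted p = 0.560), to Ankrd37 at 0.20, with a median of -0.05 over 11 tested. WT replicate 4 set much of the Adm value, at 9.02 CPM against 1.76 to 2.67 CPM in the other WT libraries, and without it and without the filter the log2 fold change was -0.62 (adjusted p = 0.766), an alternative chosen after seeing the data.

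Of the other hexose transporters, 4 of 10 were tested. Slc2a6, a lysosomal transporter, was at 48.3, 45.3, 56.0 and 52.2 CPM in the libraries labelled Alox15-/- and at 60.0, 59.7, 56.5 and 73.5 CPM in WT. Every library labelled Alox15-/- was below every WT library, narrowly so at replicate 3 of each, and the log2 fold change was -0.30 (SE 0.116, adjusted p = 0.501). Slc2a12 had values of 4.59, 2.71, 2.65 and 2.88 CPM against 0.784, 1.602, 1.92 and 1.68 CPM, on 5 to 20 reads. The groups did not overlap, with a log2 fold change of 1.05 (SE 0.341, adjusted p = 0.298), and 407 bases of its 3′ end are shared with Tbpl1, which had 1723 reads against 105 for Slc2a12. Hk3 and Hkdc1, further hexokinases, were too low to test.

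Control of fructose phosphates included Tigar, which lowers fructose 2,6-bisphosphate and so opposes Pfkfb3. Its level was 14.2, 15.2, 13.8 and 12.2 CPM in the libraries labelled Alox15-/- and 17.2, 15.4, 17.3 and 21.2 CPM in WT. The groups were separate by a small margin, and the log2 fold change was -0.36 (SE 0.156, adjusted p = 0.579). The highest value of this group was Pfkfb1 at 0.45 (adjusted p = 0.762). Pfkl, the liver-type subunit of phosphofructokinase 1, was at 59.1 ± 7.10 CPM against 63.4 ± 8.25 CPM, and Pfkm, the muscle-type subunit, at 10.6 ± 0.254 CPM against 11.3 ± 1.86 CPM.

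None of the 11 tested enzymes of the middle of the pathway had an unadjusted p under 0.05 by edgeR, against 7.84% of all genes. Their median log2 fold change was -0.06, from Aldoc at -0.34 to Eno2 at 0.22. Aldoa, the main aldolase of most cells, was at 768.6 ± 92.1 CPM against 742.4 ± 55.0 CPM. Gapdh counts are uncertain, since 140 rows with near-identical 3′ ends held 74928 reads against 19624 for Gapdh, and Eno1 and Eno1b share 99.4% of their 3′ ends. Ldhb had a log2 fold change of -0.15 and Ldhd, which uses D-lactate, of -0.32 (adjusted p = 0.853 and 0.839). Bsg, the chaperone that brings MCT1 and MCT4 to the membrane, was at 283.7 ± 16.1 CPM against 293.1 ± 48.2 CPM. The partners and pyruvate carriers ran from Mpc1 at -0.16 to Emb at 0.15. Of the 4 splicing factors that set the Pkm form, Ptbp1 had the lowest value at -0.19 (adjusted p = 0.664 by edgeR) and Hnrnpa2b1 the highest at 0.03.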

How the data were processed

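The authors deposited raw counts in 1 table, with 28239 rows named by gene symbol and 8 libraries, 4 labelled Alox15-/- and 4 WT. The authors made the counts from MACE-seq reads that were cleaned and trimmed. The submitters' processing notes name Bowtie, edgeR and GRCm38 without roles or versions, and the strand setting is not given in the sources used here. Symbols in the form of a date numbered 26, and 2 symbols each stood in 2 rows.

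Counts were read by column name. A gene entered the test if 4 or more libraries reached 2 CPM (12700 genes, 45.0%), after TMM scaling in edgeR 4.0.16 (R 4.3.3). Groups were compared with glmQLFit and glmQLFTest, edgeR's quasi-likelihood test in its non-robust form, with group as the only term, Benjamini-Hochberg adjustment over all tested genes and a threshold of 0.05. All tests were two-sided. Levels are TMM-scaled CPM, and deviations use log2 CPM with a prior count of 2. MACE counts 3′ ends, so levels were compared only within a gene. Totals were 3723151 to 9538962 (median 5907410.5), and the common biological coefficient of variation was 14.5%. Replicates differed by 4.19 to 14.8 times counting noise (chi-square per degree of freedom), so no library was counted as a duplicate.

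The 10 genes and the lists of pathway genes and markers were chosen with earlier results of these data known. Named genes were the 10, Alox15, pathway genes past the threshold or with unadjusted p under 0.05, the highest and lowest of each role group, up to 4 markers and the 10 most alike genes. A few further pathway genes were named after their values were seen. Near-identical 3′ ends were sought with blastn 2.17.0 (last 500 bases of the longest coding transcript, at least 90% identity over 300 bases). The search covered the 10 genes, Alox15, Eno1, Eno1b, Gapdh, Txnip, Egln3, Slc2a6, Slc2a12, Tigar and Adm. Other pathway genes were not searched. Alternatives were DESeq2 1.42.0 size factors and Wald test, upper quartile scaling, no filter, at least 10 counts in every library, limma-voom (limma 3.58.1), the robust fit, a replicate block and each library left out. A listed item is not reported here. Scripts were tested on simulated data.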

Additional observations from a re-analysis of the deposited data

Results flagged for a closer look

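Pkm in WT replicate 1 was at 963 CPM, and its gap to the nearest WT library was 0.850 of the range of the 4 libraries, above Dixon's 95% critical value for a single value standing apart. It was the 1 such case among 28 groups of 4 libraries examined, and chance gives about 1 in 20. Slc16a3 was also lowest in that library, at 11.4 CPM.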

How the results depend on the processing

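The count of the 10 genes past the threshold stayed at 0 under all 16 alternatives, with adjusted p of at least 0.697. Their log2 fold changes kept their direction under the other scalings, filters and tests. Leaving out a library turned 4 of them: Hk1 ranged from -0.0307 (without replicate 2 labelled Alox15-/-) to 0.174 and was also -0.0030 without WT replicate 4, Hk2 from -0.0056 (without WT replicate 3) to 0.206, Pfkp from -0.146 to 0.0262 (without replicate 4 labelled Alox15-/-), and Ldha from -0.113 to 0.0226 (without replicate 1 labelled Alox15-/-). The other 6 kept their sign, with Slc16a3 from 0.00035 (without WT replicate 1) to 0.34 (without WT replicate 3), Pkm from -0.15 (without WT replicate 1) to -0.0016 (without replicate 1 labelled Alox15-/-), Slc16a1 from 0.043 to 0.26 (without replicates 2 and 4 labelled Alox15-/- in turn), Slc2a3 from -0.20 to -0.052 (replicates 4 and 1 of that group), Pfkfb3 from -0.17 to -0.049 (replicates 1 and 3 of that group) and Slc2a1 from -0.22 to -0.12 (WT replicates 2 and 4). The median of the 10 went from -0.05 to 0.01 without replicate 1 or replicate 4 labelled Alox15-/-. For the 54 pathway genes the count was 2 with no filter (Txnip, adjusted p = 0.000794, and Adm, 0.0425) and 1 with DESeq2, and with a library left out it was 0 to 1, the 1 being Txnip without WT replicate 3. Over its alternatives Txnip kept its direction. Over all genes the count of 158 became 388 with no filter and 100 with at least 10 counts in every library, and 86 to 172 with a library left out, lowest without replicate 2 labelled Alox15-/-, then 93 without replicate 3 and 95 without replicate 1 of that group, and 105 without WT replicate 2. The causes were not tested. Deviations of same-numbered libraries correlated weakly and with mixed sign (r = 0.07, 0.17, -0.18 and -0.02 for numbers 1 to 4). Differently numbered libraries were not compared, so whether same-numbered libraries were handled together was not tested. The replicate block called 0 of the 10 genes, 0 pathway genes and 146 of all genes. Other scalings moved the median of all genes by 0.0045 and 0.029 in log2. Depth limits Hif1a, Slc2a12, Adm, Hk3 and Hkdc1 most.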
